A study of Mus musculus with 12 samples.

Results

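The mitosis genes described here are 40 genes that carry cells from G2 through chromosome segregation to cytokinesis, chosen by name out of 35869 genes in the count table. All 40 had a row, all passed the filter on low counts, and each is named below. They were measured by RNA sequencing of haematopoietic stem cells (HSCs) sorted from mouse bone marrow into a fraction positive for CD41 (CD41pos) and a fraction labelled negative (CD41neg, spelled "CD41ned" in the cell type label). CD41 is an integrin on the surface of megakaryocytes and some stem cells, and Itga2b is its gene.

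Every mouse was RUNX1f/f, meaning that both alleles of Runx1, which encodes a regulator of blood development, were floxed. Every mouse also had 4 injections of poly(I:C) and was sampled 4 weeks after injection. Knockout (KO) mice were MxCre1+/- and control (WT) mice MxCre1-/-. Poly(I:C) induces interferon, which switches on the Mx promoter of the Cre driver in stem cells and in many other cells of the animal, so the deletion is not limited to HSCs. Because only KO mice carried Cre, the loss of Runx1 and the presence of Cre cannot be told apart. WT libraries carry numbers between 1 and 10 and KO libraries numbers between 13 and 22. Genotype therefore cannot be told apart from the order of the libraries either. The ages and the number of animals are not given in the labels used here, and each of the 4 groups held 3 libraries.

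A cell that divides raises a set of genes late in the cycle from promoters with 2 known elements. The cell cycle homology region (CHR) is bound by the MuvB complex, which works with B-Myb and Foxm1, and CCAAT boxes are bound by NF-Y. The products condense the chromosomes, build the spindle, attach chromosomes to it at kinetochores and divide the cytoplasm, while the kinases Cdk1, Plk1 and the Aurora kinases order these steps. Most long-term HSCs are quiescent, so such transcripts are used in this tissue as a readout of cycling cells. In bulk RNA a larger share of cycling cells and more transcript per cycling cell cannot be told apart.

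Promoters are shown first, because these genes are known to share their control there. Windows from 250 bases before to 50 bases after RefSeq starts (GRCm38.p6) were at hand for 31 of the 40 genes. The first listed start of each gene was used. The letters CCAAT, the CHR letters TTTGAA and the variant TTTAAA were searched on both strands. On the other strand they read ATTGG and TTCAAA, while TTTAAA reads the same, and no motif was required to be free of another. CCAAT was found in 24 of 31 windows (77.4%), against 37.9% of all 27025 windows of that length. TTTGAA was found in 25 (80.6%), against 18.1%, and TTTAAA in 9 (29.0%), against 13.2%. Either CHR form was present in 28 (90.3%), against 27.8%, and a CCAAT together with a CHR form in 23 (74.2%), against 10.9%. The 250 bases before the start are printed for the 4 matched members with the smallest adjusted p in the comparison of CD41pos KO with WT cells, 5′ to 3′ on the strand of the gene, with the matched motifs in capitals.
Top2a (chr11:99024190-99024439, minus strand): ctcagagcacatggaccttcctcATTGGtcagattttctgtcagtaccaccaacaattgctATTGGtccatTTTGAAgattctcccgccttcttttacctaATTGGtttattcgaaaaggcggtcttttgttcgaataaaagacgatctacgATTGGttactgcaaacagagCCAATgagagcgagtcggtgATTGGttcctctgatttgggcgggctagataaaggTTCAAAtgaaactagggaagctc
Mki67 (chr7:135716380-135716629, minus strand): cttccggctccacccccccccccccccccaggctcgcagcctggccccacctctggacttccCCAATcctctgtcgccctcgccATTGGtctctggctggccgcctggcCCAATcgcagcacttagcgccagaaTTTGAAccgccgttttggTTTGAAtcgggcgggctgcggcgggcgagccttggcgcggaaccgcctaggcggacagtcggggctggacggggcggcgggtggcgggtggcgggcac
Ect2 (chr3:27153879-27154128, minus strand): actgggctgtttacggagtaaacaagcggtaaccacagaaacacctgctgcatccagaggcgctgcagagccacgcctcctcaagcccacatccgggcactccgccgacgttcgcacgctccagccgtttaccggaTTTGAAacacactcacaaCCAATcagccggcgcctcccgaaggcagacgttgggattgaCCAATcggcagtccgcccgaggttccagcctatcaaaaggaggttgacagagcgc
Ncapg (chr5:45669675-45669924, plus strand): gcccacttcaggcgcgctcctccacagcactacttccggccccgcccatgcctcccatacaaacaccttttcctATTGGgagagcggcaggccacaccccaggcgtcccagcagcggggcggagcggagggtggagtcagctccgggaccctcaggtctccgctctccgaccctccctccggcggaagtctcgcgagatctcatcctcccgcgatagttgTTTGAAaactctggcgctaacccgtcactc

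Top2a carried 8 matches and Mki67 5, whereas Ect2 held 3 and Ncapg 2. Among the 18 matched members that rose in CD41pos KO cells, 13 held CCAAT and 16 a CHR form, and among the 13 matched members that did not pass the test, 11 and 12 did. A match is a run of letters, not a site shown to be bound, and the part of these motifs in the differences between groups was not tested.

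Library totals lay between 44108035 and 58946457 gene counts. Levels below are counts scaled to library size by TMM (CPM), the differences are log2 fold changes ± SE, and adjusted p-values are those of edgeR's quasi-likelihood test with Benjamini-Hochberg adjustment over 19395 genes tested, called at 0.05. The labels do not say that every library came from its own animal, so p-values reflect only how much these libraries varied, which could be technical. Runx1 itself was at 141 to 159 CPM in CD41pos WT and 270 to 382 CPM in CD41pos KO libraries, and at 65.7 to 90.5 and 157 to 171 CPM in CD41neg ones. A count over the whole gene does not show whether the floxed part is gone, so this checks nothing about the deletion, and KO stands for the libraries labelled so. Itga2b followed the gate, at 551 to 1268 CPM in CD41pos and 49.6 to 270 CPM in CD41neg libraries. The stem cell markers Procr, Hlf and Mecom were detected in every library, and so were Mpo and Klf1, markers of granulocyte-monocyte and erythroid progenitors. The 4 WT libraries numbered up to 6 stood apart from the other 8, with Nr4a1, an immediate early gene chosen after its values were seen, at 18.6 to 27.7 CPM against 237 to 396 CPM. They are CD41pos WT replicates 1 and 4 and CD41neg WT replicates 2 and 4, which leaves 1 other library in each WT group, so values without them are given beside the results.

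In CD41pos HSCs, 24 of the 40 mitosis genes rose in KO cells and 0 fell. Among all genes tested, 9.79% were called higher and 7.27% lower (1899 and 1410 genes, or 1674 and 763 by limma on log2(TPM + 1)). The median log2 fold change was 0.61 over the mitosis genes and -0.08 over all genes, and 33 of the 40 were above 0 (38 of 40 on log2(TPM + 1)). By role, calls were made for 5 of 5 genes of the spindle, 4 of 4 of condensin, 3 of 3 of proliferation markers and G2/M transcription, 4 of 5 of the centromere and kinetochore and 5 of 7 of the central spindle and cytokinesis, and for 2 of 5 kinases and 1 of 7 cyclins and partners. Cdk1, the B cyclins, Plk1, the Aurora kinases and the chromosomal passenger complex did not pass the test. Groups did not overlap for 31 genes, of which 30 were higher in KO and 1 lower, against 21.9% and 22.4% of all genes.

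The summed level of the 40 genes was 5597, 5903 and 6145 CPM in the CD41pos WT libraries (replicates 1, 3 and 4) and 8378, 8234 and 8470 CPM in the KO libraries (replicates 1, 2 and 3). Every KO library lay above every WT library, and the KO mean was 1.42 times the WT mean (8360 ± 119 against 5882 ± 275, SD, n = 3). Without Mki67 and Top2a, the 2 highest in KO libraries, the ratio was 1.35. In CD41neg cells the sums were 5503, 5969 and 6409 CPM in WT (replicates 2, 3 and 4) and 5905, 7434 and 6367 CPM in KO (replicates 1, 2 and 3). These groups overlapped, with a ratio of 1.10 (6569 ± 784 against 5960 ± 454, SD, n = 3), and KO replicate 2 alone lay above all WT libraries.

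**Figure D1:**
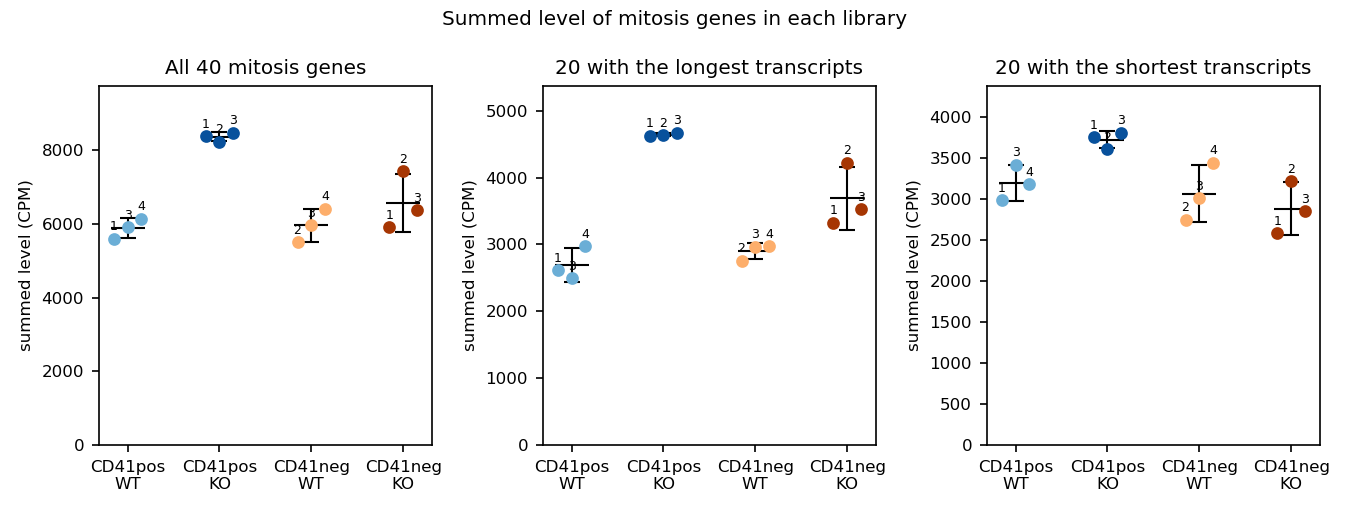
Summed level (CPM, linear axis from 0) of all 40 mitosis genes and of the 20 with the longest and the 20 with the shortest transcripts, by group; each point is a library with its replicate number, and bars show the mean and SD. The 3 CD41pos KO libraries sit between 8234 and 8470 CPM for all 40 genes, above every other library.

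Mki67 (chr7:135689784-135716361, GRCm38), the gene of the Ki-67 antigen that coats mitotic chromosomes, was at 199, 236 and 249 CPM in CD41pos WT and at 460, 448 and 479 CPM in CD41pos KO libraries. All KO libraries were higher (1.02 ± 0.13, adjusted p = 0.00201). Top2a (chr11:98992943-99024189), the topoisomerase that untangles sister chromatids, was at 305, 274 and 367 CPM in WT and 668, 702 and 681 CPM in KO. Again the groups did not overlap (1.12 ± 0.13, adjusted p = 0.00185). Foxm1, the transcription factor of G2/M genes, changed by 0.81 ± 0.15 (adjusted p = 0.00678). Thus all 3 genes of the group of proliferation markers and G2/M transcription rose.

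Of the 7 cyclins, Cdk1 and partners of the anaphase-promoting complex, 1 rose. This was Ccna2, cyclin A2, with 227, 242 and 251 CPM in WT and 352, 368 and 370 CPM in KO. Its groups were separate (0.60 ± 0.11, adjusted p = 0.00543). Ccnb1, the cyclin B1 partner of Cdk1 at mitotic entry, was at 204, 204 and 209 CPM in WT and 279, 243 and 273 CPM in KO. Its 3 KO libraries were above WT, with a difference of 0.37 ± 0.12 that missed the threshold (adjusted p = 0.0562). Cdk1, the kinase that drives entry into mitosis, was at 178, 298 and 177 CPM in WT and 197, 192 and 191 CPM in KO. The groups overlapped, with WT replicate 3 the highest library and the other WT libraries the lowest (-0.17 ± 0.20, adjusted p = 0.572). Ube2c, the ubiquitin-conjugating enzyme of the anaphase-promoting complex, also had WT replicate 3 as its highest library and overlapping groups, with 181, 302 and 162 CPM in WT and 183, 176 and 184 CPM in KO. Ccnb2 and Cdc20, the activator of that complex, differed by 0.09 ± 0.12 and -0.08 ± 0.14. Espl1, the separase that cleaves cohesin, differed by 0.38 ± 0.15 (adjusted p = 0.0897) with no overlap of groups.

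Of the 5 mitotic and checkpoint kinases 2 rose. Bub1b, the BubR1 protein of the spindle checkpoint, was at 185, 124 and 191 CPM in WT and 289, 266 and 282 CPM in KO, and Ttk, the Mps1 kinase that starts checkpoint signalling, was at 47.0, 32.1 and 49.8 CPM and 72.2, 78.4 and 73.9 CPM. Both rose with no overlap (0.74 ± 0.16, adjusted p = 0.0112, and 0.80 ± 0.17, adjusted p = 0.0114). Bub1 differed by 0.57 ± 0.23 and was not called (adjusted p = 0.106). Plk1, which acts at centrosomes, kinetochores and the midbody, was at 172, 234 and 185 CPM in WT and 175, 155 and 176 CPM in KO. Its groups overlapped (-0.23 ± 0.18, adjusted p = 0.381). Aurka, the kinase of the spindle poles, differed by 0.03 ± 0.12. A difference that missed the threshold does not show that a gene was level.

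None of the 3 genes of the chromosomal passenger complex, which corrects attachments of chromosomes to the spindle, passed the test. Incenp, its scaffold, was at 233, 239 and 226 CPM in WT and 261, 275 and 291 CPM in KO. The KO libraries were all higher, by 0.25 ± 0.12 (adjusted p = 0.151). Birc5, the survivin subunit, was at 156, 270 and 170 CPM in WT and 185, 174 and 179 CPM in KO, so the groups overlapped and WT replicate 3 was again the highest (-0.14 ± 0.19, adjusted p = 0.623). Aurkb, the kinase of the complex, differed by 0.08 ± 0.13.

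Among 5 centromere and kinetochore genes 4 rose. Ndc80, a subunit of the complex that binds microtubules at the kinetochore, was at 46.5, 38.9 and 54.4 CPM in WT and 82.6, 79.9 and 77.4 CPM in KO. No library overlapped (0.78 ± 0.15, adjusted p = 0.00783), and its partner Nuf2 changed by 0.64 ± 0.14 (adjusted p = 0.0112). Cenpe, the kinesin that moves chromosomes to the spindle equator, was at 66.0, 87.0 and 78.3 CPM in WT and 131, 131 and 135 CPM in KO. It rose by 0.78 ± 0.15 (adjusted p = 0.0079) with separate groups, and Cenpf by 0.77 ± 0.17 (adjusted p = 0.0132). The exception was Cenpa, the histone H3 variant of centromeres, at 175, 270 and 180 CPM in WT and 171, 166 and 172 CPM in KO. It was the 1 gene with every KO library below every WT library, but the test did not call it (-0.29 ± 0.20, adjusted p = 0.299).

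All 5 spindle and centrosome genes rose. Cep192, the scaffold that gathers pericentriolar material at centrosomes, was at 49.7, 42.3 and 64.8 CPM in WT and 145, 160 and 143 CPM in KO. This gap (1.51 ± 0.16, adjusted p = 0.000842) gave the smallest adjusted p among the 40 genes in this comparison. Tpx2, which activates Aurka on the spindle, was at 160, 126 and 172 CPM in WT and 267, 249 and 271 CPM in KO, also without overlap (0.78 ± 0.13, adjusted p = 0.00398). Kif11, the kinesin that pushes spindle poles apart, rose by 1.29 ± 0.23, Nusap1, a microtubule bundler, by 0.61 ± 0.15 and Kif2c, a microtubule depolymerase, by 0.60 ± 0.17 (adjusted p = 0.0347).

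Of the 7 genes of the central spindle and cytokinesis, 5 rose, and all 7 had KO libraries above WT. Ect2 (chr3:27097222-27153878), the exchange factor that activates RhoA at the cleavage furrow, was at 43.5, 25.9 and 54.3 CPM in WT and 134, 128 and 126 CPM in KO. Its groups did not overlap, and the change of 1.65 ± 0.26 (adjusted p = 0.00354) was the highest of the 40 in this comparison. Anln, the anillin scaffold of the contractile ring, was at 68.6, 48.8 and 75.8 CPM in WT and 135, 128 and 129 CPM in KO, likewise separate (1.02 ± 0.17, adjusted p = 0.00428). Prc1, Kif23 and Kif20a, which bundle and work on the central spindle, rose by 0.85 ± 0.17, 0.88 ± 0.19 and 0.62 ± 0.15. Racgap1, the partner of Kif23, and Cep55, an abscission factor, differed by 0.33 ± 0.13 (adjusted p = 0.0867) and 0.68 ± 0.25 (adjusted p = 0.0722).

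Condensin, which compacts chromosomes, rose in all 4 subunits among the 40 genes. Ncapg was at 70.5, 48.3 and 83.9 CPM in WT and 144, 173 and 151 CPM in KO, with no overlap (1.21 ± 0.20, adjusted p = 0.00378). Smc4, shared by both condensins, was at 219, 267 and 254 CPM in WT and 361, 369 and 343 CPM in KO, also apart, with a change of 0.54 ± 0.11 (adjusted p = 0.00989). Smc2 rose by 0.54 ± 0.13 and Ncapd2 by 0.41 ± 0.12 (adjusted p = 0.0424). Fam64a, known as Pimreg, a mitotic regulator, did not move with them (-0.02 ± 0.18).

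**Figure D2:**
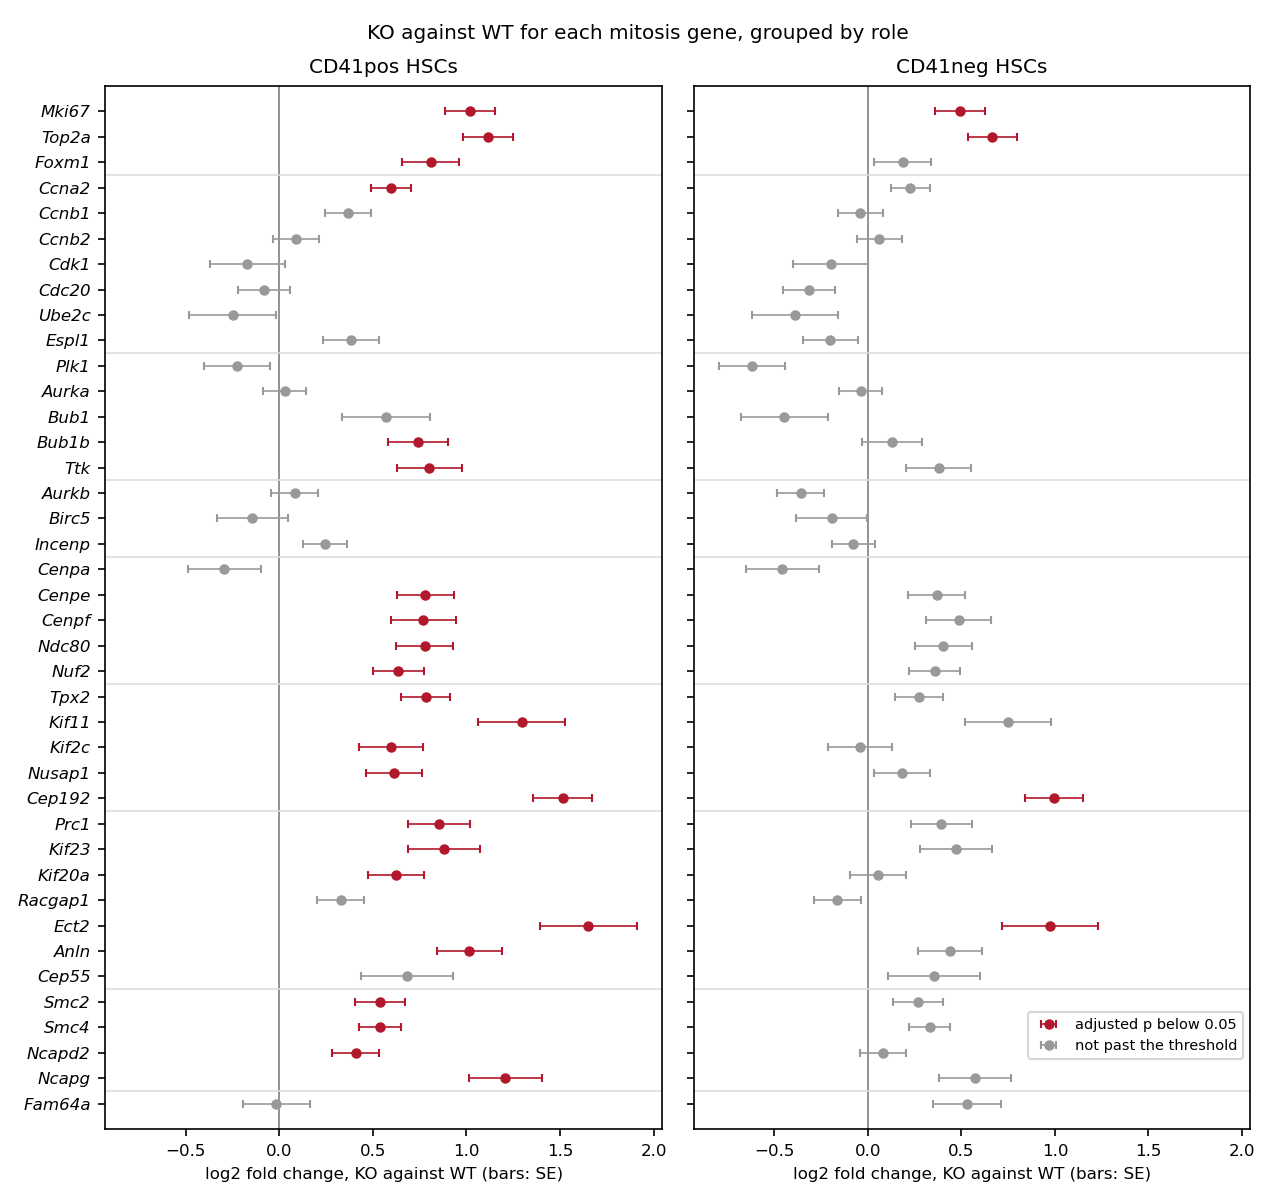
Log2 fold change of KO against WT for each mitosis gene, grouped by role, in CD41pos (left) and CD41neg (right) cells, with bars for the SE and red for an adjusted p below 0.05. In CD41pos cells 24 genes are red and all of them lie right of 0; in CD41neg cells 4 are.

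The response of the mitosis genes moved with transcript length. Their log2 fold changes in CD41pos cells correlated with the length of the principal transcript (GENCODE vM21) at a Spearman rho of 0.63 over the 40 genes, and over 10038 genes of at least 10 CPM the rho was 0.54. These are descriptions across genes of the same libraries. Among members up to 2000 bases, 0 of 8 were called. The median over all genes was -0.53 up to 1000 bases and 0.48 over 6000 bases, and the share of all genes called higher rose from 1.16% to 39.0%. In between, members called numbered 6 of 9 at 2001 to 3000 bases, where 10.8% of all genes were, and 9 of 10 at 4001 to 6000 bases, where 29.9% were. Most genes that did not pass are short, such as Birc5 (947 bases), Ube2c (967) and Cenpa (1466), and most that rose are long, such as Mki67 (10061) and Cep192 (8093). Cdk1 (4375 bases) and Espl1 (6658) were long and not called, and Ndc80 (2201) and Nuf2 (2405) were short and rose.

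Levels of single libraries, taken as deviations from the mean log2 level of all libraries, also followed length, with a rho from -0.57 to 0.09 in the WT and from 0.30 to 0.50 in the KO libraries. CD41pos WT replicate 3, the library with high Cdk1, Ube2c, Birc5 and Cenpa, had the lowest of these. RNA quality is not given in the labels. After the trend of log2 level on length was subtracted from each library (a choice made after seeing the data), 21 mitosis genes were called higher and 0 lower, 19 of them among the 24, with a median of 0.45. Cenpe, Cenpf, Smc2, Smc4 and Ncapd2 were then not called, and Ccnb1 and Ccnb2 were. Among all genes with a length, 9.52% were called higher in that fit. With a term for the 4 WT libraries as well, 20 mitosis genes were called (median 0.42), against 11.2% of all genes higher. With the replicate number as a block in place of that term, 18 were called (median 0.52), against 3.52%. Different KO and WT mice share this number, so the block does not adjust for the animal.

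**Figure D3:**
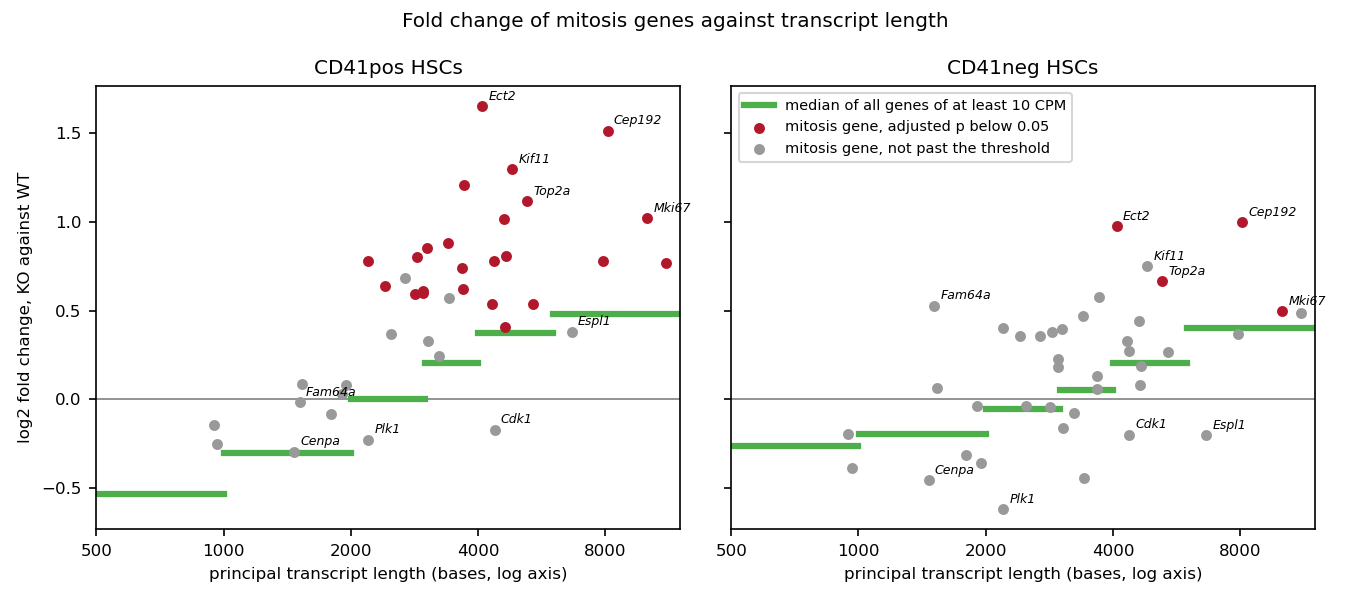
Log2 fold change of KO against WT against the length of the principal transcript (bases, log axis) for the 40 mitosis genes in CD41pos (left) and CD41neg (right) cells; red marks an adjusted p below 0.05 and green lines the median of all genes of at least 10 CPM in each range of length. In CD41pos cells the green line climbs from -0.53 to 0.48, and most red points lie above it.

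Without the 4 WT libraries that stood apart, CD41pos KO cells were compared with WT replicate 3 alone, assumed to vary like the other groups. Then 28 mitosis genes were higher, against 19.4% of all genes, and 4 lower, against 14.2%, namely Cdk1 (-0.53), Ube2c (-0.64), Birc5 (-0.49) and Cenpa (-0.57), with a median of 0.82. With the replicate number as a block 19 genes were called (2.89% of all genes higher), and Ttk, Kif2c, Kif20a, Smc2 and Ncapd2 were not. With a term for the 4 WT libraries the count was 23, against 12.9% of all genes higher. Over the fits that left out 1 library it ran from 18 to 27. Of all genes 3.18% were higher without CD41pos KO replicate 2, which gave 18, and 11.1% without CD41pos WT replicate 4, which gave 27. Mki67, Top2a, Kif11, Cep192, Ect2, Anln and Ncapg were called in each fit that left out 1 library and under each other alternative tried. The other calls lost when 1 library was left out were Ttk and Cenpf (1 of 12 fits each), Kif20a (3), Nusap1 and Smc2 (4 each), Kif2c (6) and Ncapd2 (7). Ttk was lost without CD41pos KO replicate 2, Cenpf without CD41pos KO replicate 3, and the other 5 without any 1 of the 3 CD41pos KO libraries. Nusap1, Smc2, Kif2c and Ncapd2 were also lost without CD41pos WT replicate 1, and Kif2c and Ncapd2 without CD41pos WT replicate 3 and CD41neg KO replicate 3, and Ncapd2 without CD41neg WT replicate 2.

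Some markers of other cells moved with genotype too, where 9.79% of all genes were called higher and 7.27% lower in CD41pos KO cells. In CD41pos cells 9 of 16 markers of granulocyte-monocyte progenitors fell in KO and 0 rose, their summed level going from 5584 to 6947 CPM in WT to 1933 to 4374 CPM in KO. None of the 16 was at 0 in any library, and Mpo, the most abundant, was at 2789 to 4211 CPM in WT and 1278 to 2924 CPM in KO. Summed erythroid markers overlapped, at 2393 to 3522 and 2170 to 2963 CPM. Of 15 stem cell markers 2 rose, 1 fell and 12 were not called, which was near the share of all genes. Their summed level was 1754 to 2929 CPM in WT and 3064 to 3176 CPM in KO, with every KO library higher. Procr was at 18.1 to 41.3 CPM in WT and 6.24 to 22.7 CPM in KO, while Slamf1 was at 31.4 to 56.1 and 123 to 140 CPM. Megakaryocyte and platelet markers rose for 5 of 15 genes and fell for 1, with sums of 1523 to 1783 CPM in WT and 2480 to 2985 CPM in KO. Basophil and mast cell markers fell for 4 of 7 genes (236 to 611 against 119 to 123 CPM), and endothelial and stromal markers for 5 of 12 (253 to 476 against 133 to 148 CPM). The part of cell composition in the mitosis gene result was not tested. Total counts were 45673485 to 56935860 in WT and 56087741 to 57426490 in KO.

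Further genes of the same processes were read from 4 lists of 119 tested genes. Of these 41 rose and 2 fell in CD41pos KO cells, against 9.79% and 7.27% of all genes, with a median of 0.32. Kinetochore genes gave 7 of 31, led by Kntc1 of the RZZ checkpoint complex (1.54 ± 0.26, adjusted p = 0.0048) and Cenpc1 of the inner kinetochore (0.91 ± 0.17, adjusted p = 0.0063). Spindle and centrosome genes gave 19 of 34, among them the spindle kinesins Kif15 (0.94 ± 0.12) and Kif20b (1.00 ± 0.13), the microtubule polymerase Ckap5 (1.21 ± 0.18) and Hmmr (1.12 ± 0.17). Other G2/M and cytokinesis genes gave 12 of 38 higher, such as the condensin II subunit Ncapd3 (1.47 ± 0.22), and the 2 that fell, Pttg1, the securin that holds back separase (-0.98 ± 0.20, adjusted p = 0.0099), and Sapcd2 (-0.60 ± 0.17). Subunits of the anaphase-promoting complex gave 3 of 16, Anapc1 (1.44 ± 0.24), Cdc27 (1.02 ± 0.16) and Cdc23 (0.53 ± 0.16). Genes of DNA replication, the step before mitosis, had a median of 0.07 that lay nearer to that of all genes. Of these genes 15 of 46 were higher and 0 lower, against 9.79% and 7.27% of all genes. They included the polymerase subunit Pola1 (1.08 ± 0.17) and the helicase subunit Mcm2 (0.49 ± 0.11), whereas the clamp Pcna did not pass the test (adjusted p = 0.99).

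In CD41neg HSCs fewer mitosis genes passed the test. Mki67, Top2a, Cep192 and Ect2 rose in KO cells, 0 fell and 36 were not called, against 3.85% of all genes higher and 3.97% lower. The median was 0.21, against -0.03 over all genes. Groups did not overlap for 18 genes, 15 higher and 3 lower in KO, against 18.5% and 17.0% of all genes.

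Cep192 was at 76.7, 64.0 and 60.9 CPM in CD41neg WT and 137, 140 and 125 CPM in CD41neg KO libraries. All KO libraries were higher, by 1.00 ± 0.16 (adjusted p = 0.00528). Ect2 was at 67.9, 67.2 and 38.6 CPM in WT and 102, 128 and 112 CPM in KO, with WT replicate 4 far below the other 2 (0.97 ± 0.25, adjusted p = 0.0395). Top2a was at 329, 334 and 326 CPM in WT and 459, 622 and 488 CPM in KO. Its WT libraries were close together and all below KO (0.67 ± 0.13, adjusted p = 0.0142). Mki67 was at 241, 238 and 299 CPM in WT and 329, 421 and 346 CPM in KO, again without overlap (0.50 ± 0.13, adjusted p = 0.0426).

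Several genes had negative values that did not pass the test. Plk1 was at 179, 199 and 264 CPM in WT and 112, 157 and 149 CPM in KO. All KO libraries were lower, and the difference of -0.62 ± 0.18 just missed the threshold (adjusted p = 0.0523). With DESeq2 it was called lower. Cdc20 and Cenpa had the same order of groups (-0.31 ± 0.14 and -0.46 ± 0.20), and Bub1 was at -0.44 ± 0.23 and Aurkb at -0.36 ± 0.13, none of them called. Kif11 (0.75 ± 0.23, adjusted p = 0.0645), Ncapg (0.58 ± 0.19) and Smc4 (0.33 ± 0.11) were above 0 with separate groups and were not called either.

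KO replicate 2 was the highest CD41neg KO library for the summed level, and it differed in some markers as well. Procr was at 17.0 CPM there and at 73.3 and 73.0 CPM in the other 2, Hlf at 70.4 against 237 and 234 CPM, and Gata1 at 362 against 252 and 246 CPM. The whole lists of such markers varied less. Summed stem cell markers ran from 2317 to 3014 CPM over the CD41neg KO libraries, and summed erythroid markers from 4830 to 5782 CPM. The rho between fold change and length was 0.49 over the 40 genes and 0.45 over all genes, and with the length trend removed the median was 0.044. Then Top2a, Cep192, Ect2 and Fam64a were called, against 3.84% of all genes higher, and Mki67 was at 0.05 ± 0.14 (adjusted p = 0.869). The count of 4 changed to 13 (11 higher, 2 lower) without CD41pos WT replicate 3, which entered the shared estimate of spread. Calls over all genes also grew there, to 10.1% higher and 8.72% lower. The count was 2 without CD41neg WT replicate 2 and without any 1 of the 6 KO libraries, where 0.756% to 2.44% of all genes were higher. Cep192 was called in all 12 fits that left out 1 library. Top2a was called in all but that without CD41neg WT replicate 4 (adjusted p = 0.0529), while Mki67 lost its call in 8 and Ect2 in 10. Without the 4 WT libraries the CD41neg median was 0.16. With the replicate number as a block, Top2a and Cep192 alone were called, against 1.05% of all genes higher. Of the 119 further genes, 10 rose and 4 fell, against 3.85% and 3.97% of all genes, so the number that fell was near the share of all genes. Those that fell were Pttg1 (-0.80 ± 0.20), Sapcd2 (-0.93 ± 0.18), Haus5 (-0.52 ± 0.11) and Fzr1 (-0.57 ± 0.12). Granulocyte-monocyte markers fell for 8 of 16 genes, with sums of 1967 to 3083 CPM in WT and 506 to 1250 CPM in KO. Endothelial and stromal markers fell for 7 of 12 (275 to 981 against 88.6 to 166 CPM), B and plasma cell markers for 3 of 11 (576 to 3595 against 237 to 411 CPM) and basophil and mast cell markers for 3 of 7. Megakaryocyte and platelet markers rose for 3 of 15, with sums of 268 to 428 CPM in WT and 602 to 764 CPM in KO. The part of these cells in the result was not tested.

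**Figure D4:**
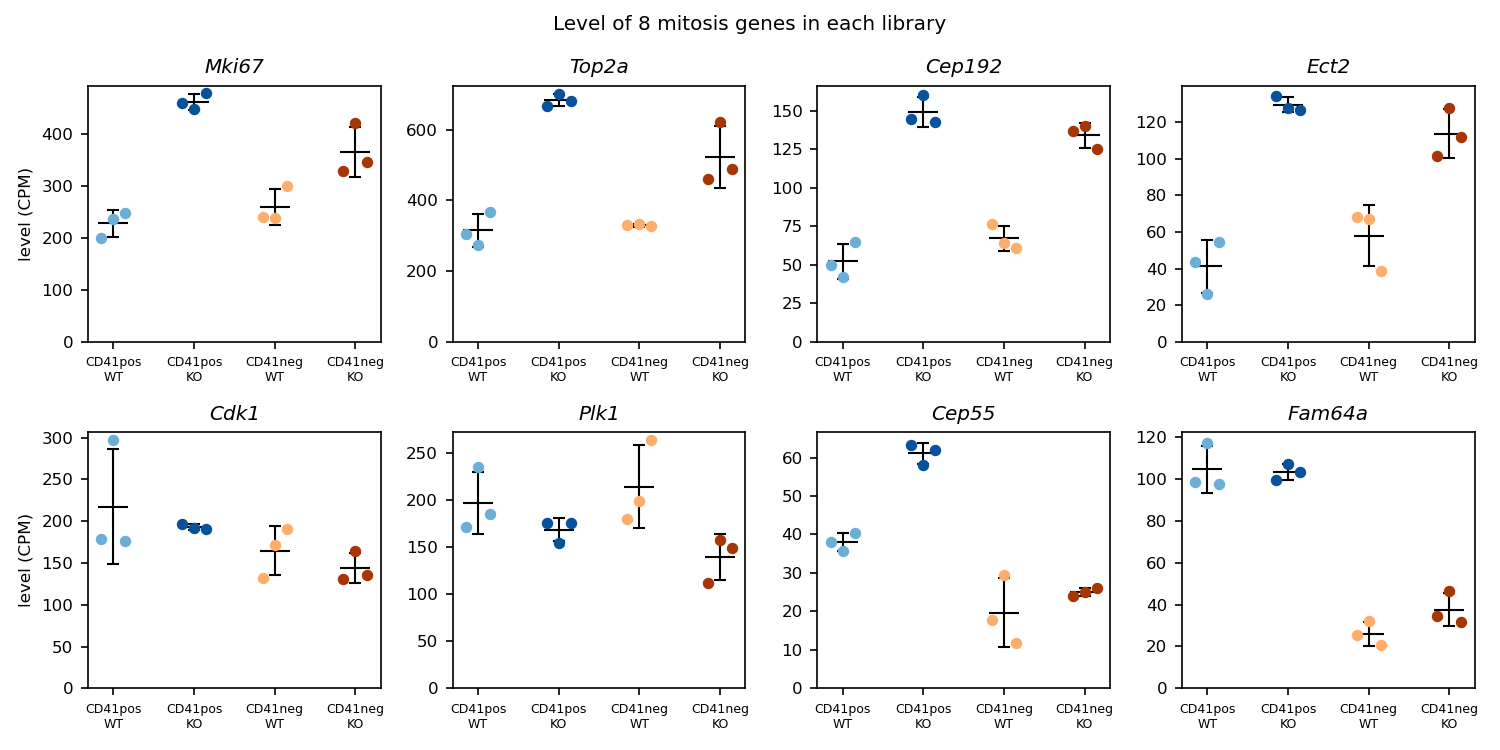
Level (CPM, linear axis from 0) of 8 mitosis genes in each library, by group, with the mean and SD as bars. Mki67, Top2a, Cep192 and Ect2 are higher in KO in both gates, Cdk1 and Plk1 are not, and Cep55 and Fam64a are higher in CD41pos than in CD41neg cells.

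The test of the difference between gates in the effect of genotype called 0 of the 40 genes and 0% of all genes (edgeR). DESeq2 also called 0 of the 40, and 73 of all genes, 49 higher and 24 lower. At an unadjusted p under 0.05 there were 16 of the 40 by each tool, against 1093 of the 19395 genes by edgeR. The median difference was 0.41 for the mitosis genes and -0.02 for all genes, and 39 of the 40 were above 0, that is, with a higher value in CD41pos cells. The 4 KO and WT groups share a fit, and KO libraries of the same number share an animal label. Bub1 had the highest value, 1.02 ± 0.33 (adjusted p = 0.783), from the differences of 0.57 and -0.44 above, and Fam64a alone was below 0 (-0.54 ± 0.26). So a stronger response in 1 gate was not shown by this test. Without the 4 WT libraries, when each WT group was 1 library, 18 genes were called higher, against 10.6% of all genes.

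Within WT mice the share of these genes called between the gates was near that of all genes. Fam64a and Cep55 were higher in CD41pos than in CD41neg cells, 0 were lower and 38 were not called, against 2.72% and 2.87% of all genes. The median was -0.04, against 0.01 over all genes, and 18 of the 40 were above 0. In KO mice 3 genes were higher in CD41pos cells, namely Fam64a, Cep55 and Racgap1, against 1.56% of all genes higher and 1.23% lower, with 0 of the 40 lower. There the median was 0.34, against -0.02, and 39 of the 40 were above 0. Groups did not overlap for 29 genes, all higher in CD41pos KO, against 15.7% of all genes higher and 14.1% lower, while in WT they did not overlap for 4 higher and 3 lower genes, against 11.4% each.

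The per-library values of these 3 genes are given because they were called. Fam64a (chr11:72042032-72047370) was at 98.7, 117 and 97.9 CPM in CD41pos WT and 25.6, 32.1 and 20.5 CPM in CD41neg WT. In KO it was at 99.8, 107 and 103 CPM and at 34.5, 46.6 and 31.7 CPM. The CD41pos libraries were higher in both genotypes with a wide gap. The difference was 2.01 ± 0.19 in WT (adjusted p = 0.000221) and 1.46 ± 0.18 in KO (adjusted p = 0.0014). Cep55 was at 37.9, 35.8 and 40.4 CPM in CD41pos WT and 17.7, 29.4 and 11.9 CPM in CD41neg WT, without overlap but with a spread-out CD41neg group (0.95 ± 0.25, adjusted p = 0.0448). In KO it was at 63.4, 58.1 and 61.9 CPM and at 24.1, 25.1 and 26.2 CPM, with tight groups (1.28 ± 0.25, adjusted p = 0.0163). Racgap1 was at 215, 200 and 244 CPM in CD41pos KO and 131, 158 and 139 CPM in CD41neg KO, so all CD41pos libraries were higher (0.62 ± 0.13, adjusted p = 0.0205).

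KO libraries with the same replicate number correlate across gates, so the block treats them as pairs. They also have adjacent library numbers (13 and 14, 17 and 18, 21 and 22), so a shared animal and shared handling cannot be told apart. With the animal label as a block, Fam64a alone was called in KO (1.48, adjusted p = 0.0239), in place of 3 genes. It was also alone in WT (2.06, adjusted p = 0.038), in place of 2. Of all genes 0.5% were higher in the KO and 0.139% in the WT comparison of that fit. The WT comparison rests on labels 3 and 4, the only ones in both gates. Their libraries correlated across gates at 0.14 and -0.52, so they are not shown to be pairs. The WT count was also 1 in every fit that left out 1 library except the fit without CD41neg WT replicate 3, Fam64a remaining in all. For KO the count was 11 without CD41pos WT replicate 3 (with 2.85% of all genes higher) and 5 without CD41pos WT replicate 4 (1.44%). It was 1 without any of CD41pos KO replicates 1, 2 and 3 or CD41neg KO replicates 1 and 3 (0.632% to 0.927%). Without the 4 WT libraries, WT cells compared as 1 library against 1 gave 5 genes higher and 12 lower, against 7.96% and 13.0% of all genes. The lower ones included Ect2 (-1.45) and Ncapg (-1.15). The KO count was then 16 higher and 0 lower, against 4.11% and 2.47% of all genes.

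Markers of other lineages differed between the gates. Erythroid markers were lower in CD41pos cells for 10 of 16 genes in WT and 8 of 16 in KO, with sums of 5475 to 6803 CPM in CD41neg WT and 2393 to 3522 CPM in CD41pos WT. Granulocyte-monocyte markers were higher for 8 and 6 of 16 genes. Megakaryocyte and platelet markers were higher for 11 of 15 in both, and none was at 0 in all libraries. Their part in the differences between gates was not tested. Among the 119 further mitosis genes 0 were lower in CD41pos cells, against 2.87% of all genes in WT and 1.23% in KO. In WT 6 were higher, against 2.72% of all genes, and in KO 7, against 1.56%. Ska2, Fam83d, Psrc1, Knstrn, Troap and Pbk were those in WT, of which Psrc1, a regulator of spindle microtubules, had the highest value (0.99 ± 0.18, adjusted p = 0.0087).

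Exons of 11 of the 40 genes overlap those of another gene in GENCODE vM21, and the library kit does not mark the strand. Reads there cannot be assigned to 1 gene, as in Kif20a, where 1271 exon bases are shared with Cdc23 on the other strand, and in Ncapg, where 944 are shared with Lcorl. Of the genes that rose in both gates, Top2a shares 122 bases with the small gene Gm23451, and Mki67, Cep192 and Ect2 share none.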

How the data were processed

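RNA of sorted HSCs was extracted (miRNeasy Micro) and made into SMART-Seq v4 libraries, per the labels' protocols, a chemistry that reads whole transcripts without marking the strand. The authors deposited raw gene counts as whole reads and, for the same rows, TPM values. The submitters' processing notes name FastQC 0.11.7, cutadapt 1.9.1, STAR 2.6.1e, featureCounts 1.6.2 and the mm10 build. Tool settings and gene annotation: not given in the sources used here. Dates had replaced 27 gene names in the count file, and these were read from the TPM file. The TPM values served as an alternative and, apart from a summed ratio, only within a gene. The lengths they imply followed annotated lengths loosely (Spearman 0.68 over 9533 genes).

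Groups came from the labels. Genes were filtered with filterByExpr, scaled by TMM and fitted with 4 group means over all 12 libraries (edgeR 4.0.16, R 4.3.3). From this fit 5 comparisons were drawn, two-sided. The SE is the log2 fold change divided by the root of F. The members and the lists were chosen with earlier results of these data known, and so were the alternatives. Levels in every library are given for the 2 members of each role group of 3 or more with the smallest adjusted p in CD41pos KO against WT, for Mki67, Top2a, Cdk1, Ccnb1 and Plk1, and for members called in other comparisons. Ube2c and Cenpa were added after their values were seen. Transcript lengths are of GENCODE vM21 and covered 88.3% of genes tested. Replicates of a group all differed beyond sampling noise (chi-square per degree of freedom between 15.0 and 262 over 12 pairs).

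Deviations from group means over 10206 genes correlated between gates for libraries of the same KO animal label (0.47, 0.65 and 0.54), so the block treated these as pairs. That does not show that they came from 1 animal, because shared handling cannot be told apart from it. For the WT labels 3 and 4 shared by the gates the correlations were 0.14 and -0.52. Simulated counts with 200 changed genes among 19395 were used to test the fit of CD41pos KO against WT. It called 97 of 100 genes changed by a log2 of 2 and 56 of 100 changed by 1, with 7 false among 160 calls.

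Alternatives were DESeq2 1.42.0 and its size factors, fits restricted to the groups compared and 2 further filters on low counts. A replicate block, limma-trend (limma 3.58.1) on log2(TPM + 1) and log2(TPM + 0.1), quality weights and a Y-linked covariate were also run. So were a minimum log2 change of 0.5, a term for or the removal of 4 WT libraries, and leaving out each library in turn. The block was the animal label for the gates and the interaction. For KO against WT it was the replicate number, which different KO and WT mice share. Removal of the transcript-length trend (lowess, span 0.3) was added after seeing the data.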

Additional observations from a re-analysis of the deposited data

How the results depend on the processing

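In CD41pos KO against WT the direction of the 24 called genes held under each alternative run. A required log2 change above 0.5 left 7 of them and 0 of the 4 called in CD41neg cells, and 1 for the gates in WT and 1 in KO. In the same order 1.29%, 0.438%, 0.541% and 0.644% of all genes were then higher. The median in CD41pos KO against WT was 0.79 and 0.83 on log2(TPM + 1) and log2(TPM + 0.1). It was 0.82 without the 4 WT libraries, 0.45 with the length trend removed and 0.42 with a term for these libraries as well. The median of all genes moved from -0.08 to 0.05 and 0.11 on the TPM scales. In CD41neg cells the medians were 0.37 and 0.38 by TPM. With the transcript-length trend removed the CD41neg median was 0.044, and 0.070 with the term for the 4 WT libraries as well. Counts for CD41neg KO against WT were 7 by DESeq2 (6 higher, 1 lower), 7 on log2(TPM + 1), and 12 with quality weights (8 higher, 4 lower), where 7.85%, 3.59% and 8.38% of all genes were higher. Counts for the gates in KO were 13 by DESeq2, 13 with only the groups compared and 33 with quality weights, where 3.76%, 4.59% and 10.5% of all genes were higher. They were 5 with the term, 16 without the 4 WT libraries, 7 with the length trend removed and 9 with the term too. For the gates in WT the count was 1 with DESeq2 size factors and 1 with only the groups compared, where 2.67% and 0.609% of all genes were higher. Without the 4 WT libraries it was 17, the median was -0.21, and Ttk (-0.68), Prc1 (-0.56) and Kif23 (-0.51) turned negative. The interaction then gave 18 with a median of 0.74. The cause of these moves was not tested.

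With the replicate block the counts were 19 in CD41pos and 2 in CD41neg cells, and 1 each for the gates in WT and KO. The shares of all genes higher were 2.89%, 1.05%, 0.139% and 0.5%. With the block and the length trend removed the counts were 18, 1, 1 and 1, against 3.52%, 1.11%, 0.625% and 1.45% of all genes higher. Over fits leaving out 1 library, counts ran from 18 to 27, 2 to 13, 1 to 2, 1 to 11 and 0 to 0 in the order CD41pos, CD41neg, gates in WT, gates in KO and interaction. Medians ran from 0.55 to 0.78, 0.10 to 0.29, -0.09 to 0.00, 0.29 to 0.42 and 0.36 to 0.52. The share of all genes higher moved too, from 3.18% to 11.1% in CD41pos and 0.756% to 10.1% in CD41neg cells. For the gates it ran from 1.04% to 2.99% in WT and 0.632% to 2.85% in KO. The summed ratio in CD41pos cells was 1.33 by TPM, which adds up genes and so depends on the lengths used there. By CPM it was 1.35 without Mki67 and Top2a. In the 150 bases before the start, CCAAT was found in 74.2% of member and 25.3% of all windows, TTTGAA in 38.7% and 9.24%, TTTAAA in 9.68% and 6.79%, and either CHR form in 48.4% and 14.9%. Of 5560 values for single genes under the alternatives, 5206 kept direction and side of the threshold, 153 lost and 198 gained a call and 3 reversed. With 3 libraries a group the fit called 56 of 100 genes simulated with a log2 change of 1. That simulation gave 160 calls, whereas 3309 genes were called in CD41pos KO against WT, so its adjusted threshold was stricter. It therefore does not set the smallest change that can be called here, and Ncapd2 was called at 0.41. Genes that missed the threshold may still have changed.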
